A study of Homo sapiens with 6 samples.

Results

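The mock-irradiated cultures of HaCaT, a spontaneously immortalised human keratinocyte line, were described here from the 3 mock arrays of a series of 6. The members were chosen by the title of the sample alone, and the irradiated arrays enter no value below. The mock cultures received 0 Gy, the dose that stands in for X-rays in the control group, and were collected 48 h later. Per the labels, the medium was high-glucose DMEM with fetal serum, RNeasy columns served for the RNA, and biotin-labelled material made with the Ambion WT Express kit was read on 1 array per culture. In the titles they are biological replicates 1, 2 and 3, with no word on days or passages, and all 3 come from the same line. Each gene is represented by 1 transcript cluster with a single symbol, the one with the highest mean over the mock arrays, which gave 22411 genes. Values are log2 signals as deposited, means carry the SD over the 3 cultures (n = 3), and with 1 group no test between groups was possible, so no p-value is given.

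The epidermis renews itself from a basal layer that divides and is held to the basement membrane. Basal cells make the keratin pair KRT5 and KRT14, under the control of TP63. On leaving that layer, cells switch to KRT1 and KRT10 in the spinous layer and then lay down the cornified envelope from precursors such as involucrin and the small proline-rich proteins. Keratinocytes also sense foreign nucleic acids and make interferons, which act through their receptors and the JAK kinases to raise a shared set of antiviral genes. Those genes carry the interferon-stimulated response element in their promoters, while many envelope precursor genes carry sites for AP-1, a dimer of Fos and Jun proteins.

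The promoters below were picked from genes with wide distances between the cultures in the interferon and envelope lists described further on. Only promoters that held a match were shown. OAS2, SAMD9L and XAF1, with wider distances than IFIT3, were not among the genes found to hold the interferon core. Each is the stretch of 180 bases before the RefSeq start site (GRCh38.p14), written 5′ to 3′ along the gene. In the first 3 the capitals mark matches to GAAANNGAAA on either strand, the core of the interferon-stimulated response element, and in the last 2 they mark matches to TGANTCA, the letters AP-1 binds.
IFI6 (chr1:27672193-27672372, minus strand): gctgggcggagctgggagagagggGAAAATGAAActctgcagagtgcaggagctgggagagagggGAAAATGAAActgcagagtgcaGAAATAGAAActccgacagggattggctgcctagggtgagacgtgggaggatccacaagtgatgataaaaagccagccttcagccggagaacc
IFIT3 (chr10:89327817-89327996, plus strand): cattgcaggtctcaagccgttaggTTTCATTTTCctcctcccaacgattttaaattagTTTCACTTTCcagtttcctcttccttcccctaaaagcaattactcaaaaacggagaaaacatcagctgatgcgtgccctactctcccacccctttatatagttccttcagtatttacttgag
OAS3 (chr12:112938294-112938473, plus strand): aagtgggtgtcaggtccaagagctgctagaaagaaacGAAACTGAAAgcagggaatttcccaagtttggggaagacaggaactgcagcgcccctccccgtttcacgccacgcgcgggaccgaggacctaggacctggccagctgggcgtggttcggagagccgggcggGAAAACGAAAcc
IVL (chr1:152908366-152908545, plus strand): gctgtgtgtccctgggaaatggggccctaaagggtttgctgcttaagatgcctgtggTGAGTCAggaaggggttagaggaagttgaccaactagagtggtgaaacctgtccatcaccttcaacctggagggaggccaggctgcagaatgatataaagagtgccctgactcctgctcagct
SPRR1B (chr1:153031023-153031202, plus strand): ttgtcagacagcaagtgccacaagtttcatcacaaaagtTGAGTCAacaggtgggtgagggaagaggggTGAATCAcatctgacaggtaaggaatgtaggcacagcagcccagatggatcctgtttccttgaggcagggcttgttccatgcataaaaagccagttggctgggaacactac

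IFI6 held 3 matches to the interferon core, the nearest ending 84 bases before its start, and IFIT3 and OAS3 held 2 each. IVL held 1 AP-1 match and SPRR1B held 2. Over the window from 250 bases before to 50 after the start, the interferon core was found in 3.57% of 35116 RefSeq promoters and the AP-1 letters in 7.71%. By gene, 19 of the 26 interferon-stimulated genes above background with a promoter in the table held the core (73.1%), against 4.38% of all 27305 genes. The AP-1 letters were found in 2 of 4 spinous and 3 of 7 cornified layer genes with a promoter in the table, against 9.37% of all genes. PARP9 and DTX3L, which encode partner proteins of a single complex, shared 1 core match, at chr3:122564332-122564341. A match is a description of letters and not a site shown to be bound.

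Background was set by 23 control sets of probes that match no transcript. The brightest of them averaged 5.92, and 9602 genes had a mean above that limit (42.8% of 22411). On single arrays the brightest control set lay at 6.88 in culture 1, 5.52 in culture 2 and 5.86 in culture 3, and in culture 1 a single control set made the difference, the second brightest being at 5.98. Genes above the array's own limit in every culture numbered 7427. The median signal of the 9602 genes was 8.28, 8.26 and 8.22 in cultures 1, 2 and 3, so the arrays were on nearly the same scale. A gene that passed the limit on its mean through 1 bright culture had to differ between cultures, so the counts of varying genes below are descriptions. With the limit required in every culture, 1063 genes varied, against 1221. The 8 control sets for hybridisation and labelling differed by 0.16 to 0.78 between the highest and the lowest array, with a median of 0.45 and 0 sets at 1 or more.

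Culture 3 stood apart from cultures 1 and 2. A gene was counted as varying where its highest and lowest culture lay at least 1 apart on the log2 scale, a 2-fold difference in signal, and 1221 of the 9602 genes did so (12.7%). Culture 3 was the one farther from the other two in 734 of these 1221 genes (60.1%), on the high side in 306 (3.19% of all genes above background) and on the low side in 428 (4.46%). Culture 2 stood apart in 252, with 150 high (1.56%) and 102 low (1.06%), and culture 1 in 235, with 144 high (1.5%) and 91 low (0.948%). Culture 3 exceeded both other cultures by at least 1 in 174 genes (1.81%) and lay below both by at least 1 in 225 (2.34%). Over all 9602 genes, cultures 1, 2 and 3 were the highest in 30.4%, 35.4% and 34.2%. They were the lowest in 28.2%, 28.9% and 42.9%. These shares, and the 12.7% that varied, are the background for the counts of each list below.

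Without culture 3 the number of varying genes was 313 of 9602 (3.26%), between cultures 1 and 2. Without culture 2 it was 719 (7.49%), and without culture 1 it was 834 (8.69%). Across these genes, which are not independent replicates, Pearson's r was 0.982 between cultures 1 and 2, 0.962 between 1 and 3 and 0.959 between 2 and 3. A difference between 2 cultures has no replicate check of its own. The typical gene nevertheless varied little, with a median distance between the highest and the lowest culture of 0.43 and quartiles of 0.24 and 0.71. The distance was under 0.5 for 5540 genes (57.7%), 2 or more for 191 and 3 or more for 52. Dim genes differed less, with a median distance of 0.36 for means from the limit to 8 and 0.21 for means below it. A small distance near background is therefore not read as steady expression.

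**Figure D1:**
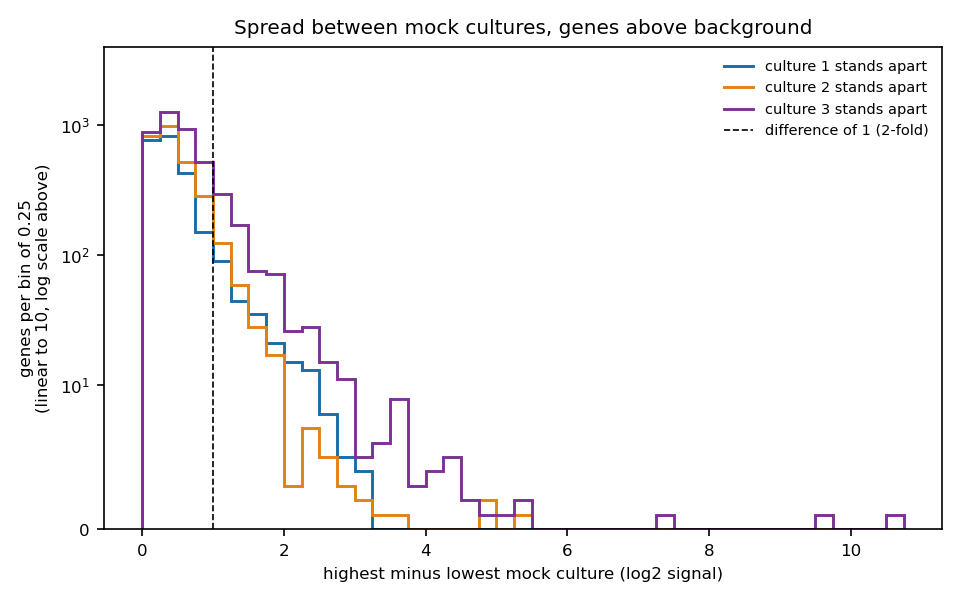
Number of genes above background (y axis, linear to 10 and logarithmic above) by the distance between the highest and the lowest mock culture (x axis, log2 signal), with 1 line for each culture that stood apart and a dashed line at 1. Culture 3 leads at nearly every distance past 1, and the 3 genes past 7 all had culture 3 apart.

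The 10 brightest genes included both steady and varying ones. The 57 genes with a mean over 16 had a median distance of 0.45 and 15.8% of them varied, against 0.43 and 12.7% of all genes above background. The signal of a gene depends on its probes as well as on its RNA, so no order of RNA amounts is drawn from these values. RN7SL1, the RNA of the signal recognition particle, lay at 19.82, 19.92 and 19.76 in cultures 1, 2 and 3, and RN7SK, which holds the elongation factor P-TEFb inactive, at 19.68, 19.61 and 19.60. EEF1A1, the translation elongation factor that brings tRNA to the ribosome, lay at 19.02, 18.96 and 18.95. These 3 differed by at most 0.15 between cultures. SCD, the stearoyl-CoA desaturase, averaged 17.87 ± 0.069 and ANXA2P2, a processed copy of annexin A2 that can share its probe signal, 17.91 ± 0.077. SLC44A4, as the platform table names that cluster, averaged 18.83 ± 0.034 and YWHAZP3, a copy of a 14-3-3 gene, 17.74 ± 0.19. SLC38A2, an amino acid transporter, had its highest signal in culture 1 (18.15, 17.38 and 17.29). SNORD13 and the cluster that the platform annotation names MIR548D1 were the others of the 10 brightest, and each varied by more than 1.

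KRT5 and KRT14, the basal keratins, were high in all 3 cultures. KRT5 lay at 17.06, 17.18 and 18.21 in cultures 1, 2 and 3 (mean 17.48 ± 0.64) and KRT14 at 16.21, 16.55 and 17.17 (16.64 ± 0.48). KRT5 thus differed by 1.16 and KRT14 by 0.95, with culture 3 the highest for both. The spinous pair behaved differently. KRT1 lay at 6.36, 6.36 and 16.88, which was the largest distance of any gene above background at 10.52, and in culture 1 it was below that array's own limit. KRT10 lay at 8.44, 8.11 and 13.43, a distance of 5.33. Both were high in culture 3 and low in the others, and between cultures 1 and 2 the 4 keratins differed by at most 0.34. TP63 is not analysed here. The keratinocyte label thus rests on 4 of the 5 markers, the basal keratins being far above background in every culture and the spinous keratins in culture 3. In bulk samples, fewer cells of a type and less RNA per cell cannot be told apart.

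Of 15 measured genes of the spinous differentiation list, 6 were above background and 4 of them varied, with culture 3 apart on the high side in all 4. IVL, the envelope precursor involucrin, lay at 6.96, 6.16 and 10.97. FABP5, a carrier of fatty acids in the epidermis, lay at 5.99, 6.16 and 8.15. LYPD3 (8.28, 7.59 and 8.31) and DMKN, the secreted protein dermokine (7.56, 7.93 and 7.65), did not vary by 1. The list's median deviation from the gene's mean over the cultures was 2.16 in culture 3, against -0.92 in culture 1 and -1.24 in culture 2, and over all 9602 genes the medians were -0.032 in culture 3, 0.0049 in culture 1 and 0.017 in culture 2. Over all 15 measured members, with no limit on signal, the median of culture 3 was 0.42. Without culture 3, 0 of the 6 genes varied. The other 9 measured members had means below the background limit. Of these, DSG1, a desmosomal cadherin of upper layers, was above that array's own limit in culture 3 (4.33, 4.16 and 7.84), as were KRT2 at 6.10 and DAPL1 at 6.52. The other 6, DSC1 among them, were below the limit on every array.

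The granular and cornified layer list did not follow one culture. Of 26 measured genes 10 were above background, and 6 of these varied. SPRR1B, a small proline-rich envelope precursor, lay at 6.43, 6.39 and 11.53 and its neighbour SPRR1A at 5.39, 5.86 and 8.80. KLK7, a protease that frees cells from the surface, lay at 5.78, 5.84 and 7.03. These 3 were highest in culture 3, where the signals of cultures 1 and 2 were at or near background. FLG, which encodes profilaggrin, was instead highest in culture 1 (10.32, 8.08 and 8.23), as was ABCA12, the lipid transporter of lamellar granules (7.60, 6.36 and 6.48). TGM1, the transglutaminase that crosslinks the envelope, was lowest in culture 2 (7.94, 6.92 and 7.93). LCE3D (5.93, 6.06 and 6.13) and the plakin EVPL (6.28, 6.13 and 6.22) differed by 0.20 and 0.15. Both lay near background, and in culture 1 below that array's own limit. Without culture 3, 3 of the 10 genes varied.

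**Figure D2:**
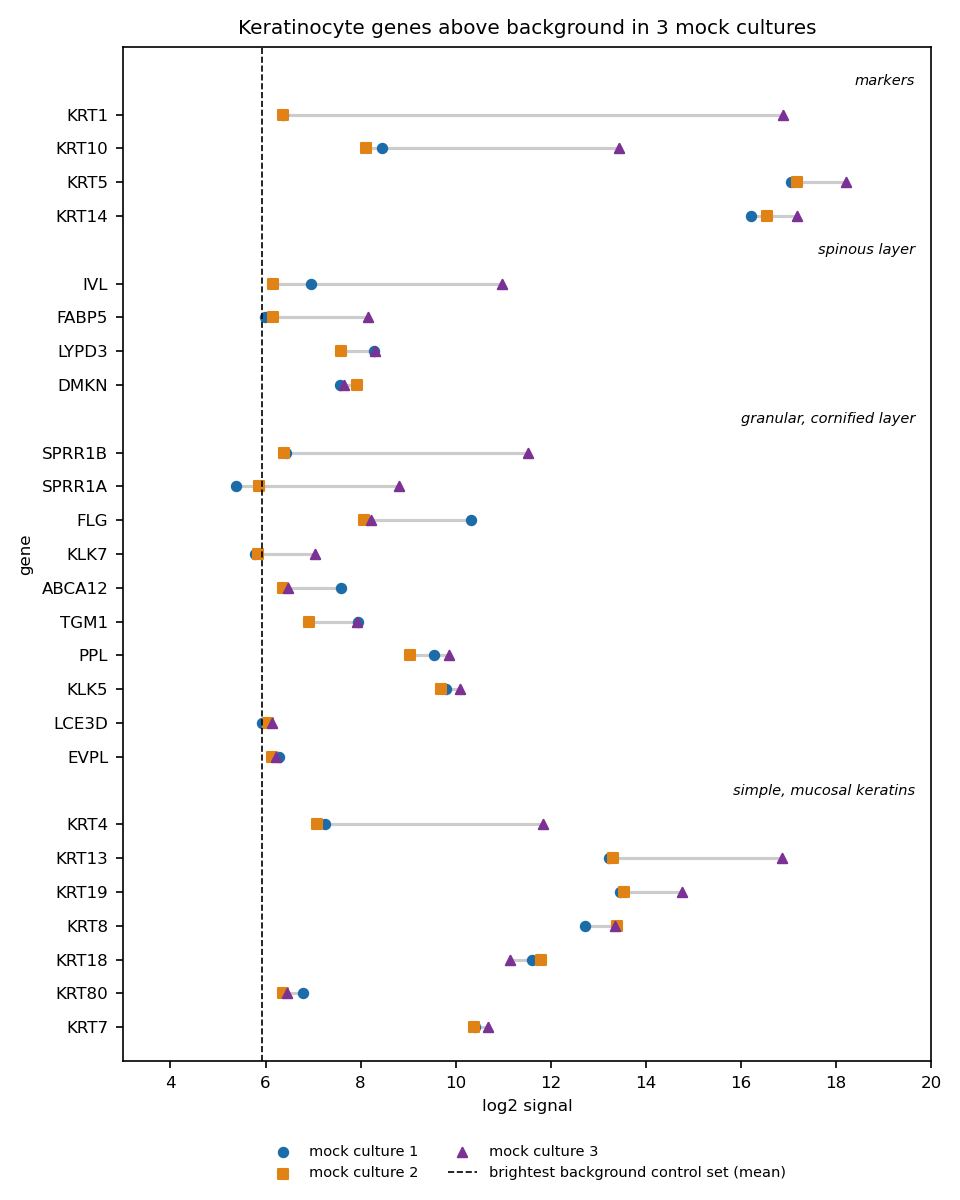
Log2 signal (x axis) of each keratinocyte gene with a mean above background (y axis, grouped by list) in the 3 mock cultures, with a grey bar from the lowest to the highest culture and a dashed line at the background limit of 5.92. KRT1, KRT10, IVL, SPRR1B, KRT4 and KRT13 lie far to the right in culture 3 alone, while FLG and ABCA12 are highest in culture 1.

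Keratins of simple and mucosal epithelia, which HaCaT and many cultured keratinocytes make, were also measured. KRT4, a mucosal keratin, lay at 7.25, 7.09 and 11.83 and its partner KRT13 at 13.22, 13.30 and 16.86. KRT19 lay at 13.46, 13.53 and 14.76. These 3 of 7 genes above background varied and were highest in culture 3. The simple keratins KRT8 (12.73, 13.38 and 13.35) and KRT18 (11.60, 11.80 and 11.15) differed by 0.66 and 0.65, and KRT7 and KRT80 by 0.29 and 0.42. Without culture 3, 0 of the 7 varied.

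The activated and wound list had 10 of 14 measured genes above background and 7 of these varied, in several directions. SLPI, a secreted protease inhibitor, was highest in culture 1 (11.32, 8.65 and 9.90), and LCN2, the siderophore-binding lipocalin, was lowest in culture 3 (8.98, 8.13 and 6.52). SERPINB3 (11.29, 12.42 and 13.04) and SERPINB4 (11.54, 12.55 and 12.85), a pair of near-identical serpins that can share signal, were lowest in culture 1. KRT16, the keratin of wounded epidermis, lay at 6.41, 6.30 and 7.66, with culture 3 the highest. PI3, an elastase inhibitor, and S100A9, a calcium-binding alarmin, differed by 0.77 and 0.64. Without culture 3, 3 of the 10 varied.

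A smaller share of the fate regulators varied than of the genes of differentiation, but several of the regulators were dim. Of 17 above background among 21 measured, 1 varied (5.88%), GATA3, a transcription factor of the differentiating epidermis, at 10.25, 7.86 and 8.59. Culture 3 was nonetheless the highest in 13 of 17, against 34.2% of all genes. OVOL2 and GRHL1, a pair of epithelial transcription factors, differed by 0.98 and 0.87. Both lay near background, as did GRHL3, KLF4, OVOL1 and CEBPB. All of these were below that array's own limit in culture 1. The receptor NOTCH2 was instead lowest in culture 3 (8.09, 8.66 and 7.81). KLF5, a factor of proliferating epithelium, lay at 14.21, 13.85 and 14.59. TFAP2A and CEBPA differed by 0.16 and 0.05, but CEBPA lay near background (6.30, 6.34 and 6.35) and in culture 1 below that array's own limit. Among all genes with means from the background limit to 8, 7.87% varied.

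Basal anchorage genes were bright and moved in both directions. KRT15, a basal keratin, was highest in culture 3 (8.80, 8.27 and 10.59). ITGA2, a collagen-binding integrin chain, was highest in culture 1 (15.65, 14.73 and 14.02), and DST, the linker between keratin filaments and hemidesmosomes, was lowest in culture 3 (9.91, 10.26 and 8.94). ITGA6, a chain of the hemidesmosome integrin, lay at 16.19, 16.11 and 16.37, and ITGB1 differed by 0.45. Without culture 3, 0 of the 10 genes above background varied.

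Among junction genes, 19 of 21 measured were above background and 7 varied. GJA1, the gap junction protein connexin 43, lay at 6.95, 8.87 and 10.98 and differed between each pair of cultures by more than 1. DSC2, a desmosomal cadherin, lay at 11.16, 11.87 and 14.19, and DSC3, its relative, at 14.93, 15.23 and 16.47. The plaque protein DSP lay at 15.32, 15.65 and 16.52. These 4 were highest in culture 3, whereas CLDN1, a tight junction claudin, was highest in culture 1 (16.38, 14.57 and 13.90). CDH1, the adherens cadherin, lay at 12.76, 12.80 and 12.75 and PKP3, a plaque protein, at 7.27, 7.27 and 7.30. Without culture 3, 2 of the 19 varied.

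Interferon-stimulated genes were above background without any irradiation, highest as a group in culture 1 and lowest in culture 3. Of 38 measured genes 30 were above background, and 18 of these 30 varied (12.7% of all genes above background did). Culture 3 was the lowest in 27 of 30 (42.9% of all genes), and culture 1 was the highest in 24 (30.4% of all genes). The median deviation from the gene's mean was 0.51 in culture 1, 0.06 in culture 2 and -0.45 in culture 3. The order did not rest on culture 3 alone: culture 1 exceeded culture 2 in 25 of 30 genes by a median of 0.58, and 8 of the 30 varied between these 2. Genes of the list are induced together, so the 30 are not independent observations.

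IFI6, a mitochondrial protein of the interferon response, lay at 10.81, 9.67 and 7.18 in cultures 1, 2 and 3, a distance of 3.63. The synthetases of 2-5A, the activator of RNase L, followed the same order for OAS3 (10.19, 8.72 and 7.68) and OAS2 (10.24, 9.11 and 7.91). SAMD9L, an antiviral and growth-restricting protein, lay at 9.58, 8.62 and 7.29 and XAF1, a pro-apoptotic protein, at 9.29, 7.73 and 7.06. These 5 had the largest distances of the list, each with culture 1 the highest and culture 3 the lowest. IFIT3, which stabilises the RNA-binding IFIT complex and whose promoter is shown above, lay at 11.13, 10.31 and 9.30. It was named, like the other IFIT and OAS genes that follow, after its values were seen. OAS1 departed from the order, with culture 2 the lowest (8.47, 6.71 and 7.20), and RSAD2, the antiviral enzyme viperin, had its highest signal in culture 3 (8.31, 7.15 and 8.45). HERC5, the ligase for ISG15, and IFI35 differed by 0.26 and 0.41. IFI27, ISG15 and MX2, also named after their values were seen, had means below the background limit.

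**Figure D3:**
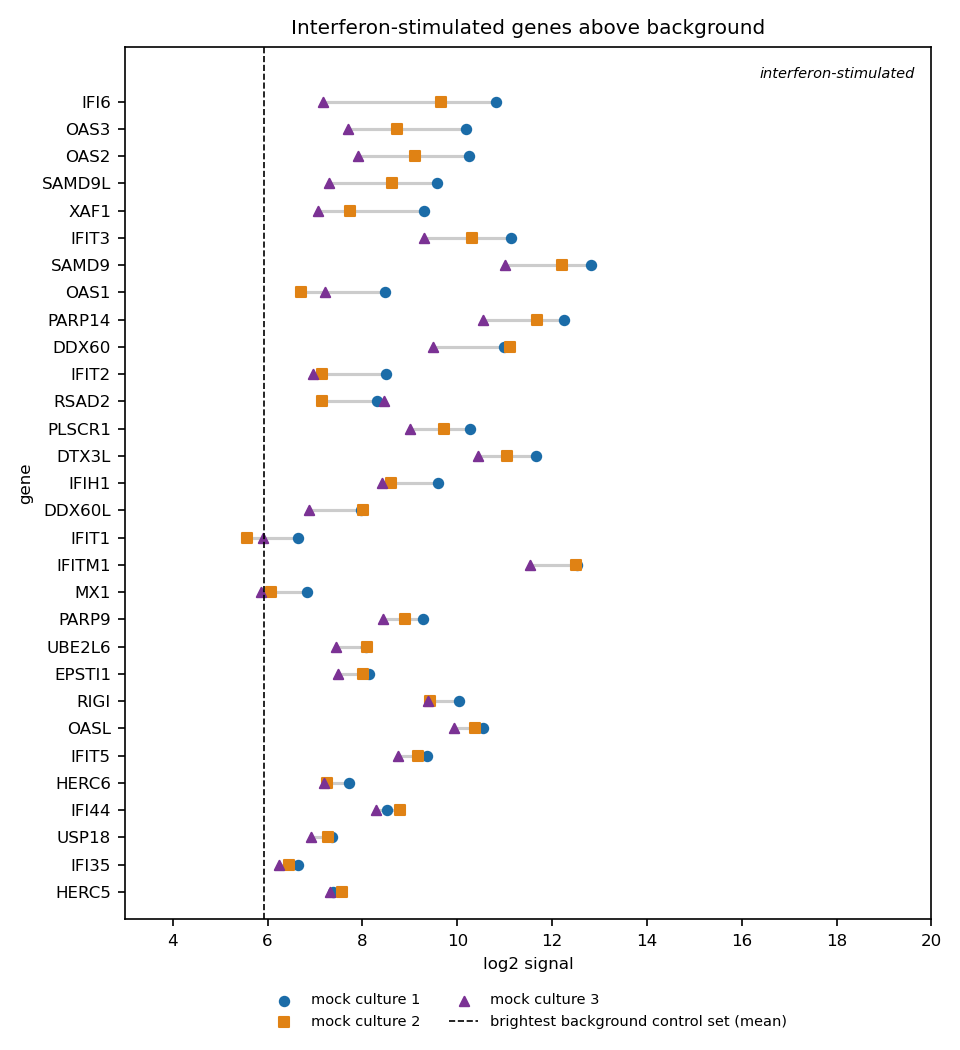
Log2 signal (x axis) of the 30 interferon-stimulated genes above background (y axis, ordered by distance) in the 3 mock cultures, with a grey bar from the lowest to the highest culture and a dashed line at the background limit. Culture 1 is the rightmost in 24 genes and culture 3 the leftmost in 27, with OAS1, RSAD2 and IFIT1 lowest in culture 2.

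None of the 9 measured interferon ligands had a mean above the limit. IFNE, an epithelial type I interferon, was the nearest at 5.91, 5.85 and 4.71, and in culture 2 it lay above that array's own limit of 5.52. The other 8 lay between 3.20 and 4.54, below the limit on every array, and were not detectable by this measure. Of 10 measured receptor, kinase and signalling genes 9 were above background, and 0 of these 9 varied. IL10RB, the shared chain of the type III interferon receptor, differed the most (9.08, 9.19 and 9.73), then IRF1, an interferon-regulated transcription factor (6.51, 6.31 and 6.03), and the interferon gamma receptor chains IFNGR2 and IFNGR1 (0.40 and 0.38). IFNAR2, a chain of the type I receptor, lay at 7.91, 8.04 and 7.97. The kinase TYK2 lay near background at 6.21, 6.11 and 6.02. In culture 1 both TYK2 and IRF1 were below that array's own limit. The median distance of these 9 genes was 0.36, below the 0.43 of all genes.

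Class I antigen presentation genes leaned the same way as the interferon-stimulated genes, by less. Of 11 above background 2 varied (18.2%, against 12.7% of all genes), and culture 3 was the lowest in 10 (42.9% of all genes). ERAP1, the aminopeptidase that trims peptides for class I molecules, lay at 11.19, 10.52 and 9.74. HLA-B lay at 10.11, 10.11 and 9.08 and HLA-C, a paralog that can share probe signal, at 10.92, 10.84 and 10.13. TAP2, a chain of the peptide transporter, lay at 8.16, 8.46 and 7.51, while B2M, the shared light chain, differed by 0.35 and HLA-E by 0.14. Between cultures 1 and 2, 0 of the 11 varied.

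Cytokine genes held some of the widest distances. CCL2, a monocyte chemokine, lay at 17.24, 16.52 and 13.52. IL1A, the alarmin interleukin 1 alpha, lay at 9.33, 9.80 and 5.98, and IL1B at 9.57, 10.40 and 8.29. All 3 were lowest in culture 3. IL1RN, the receptor antagonist, was instead lowest in culture 2 (8.26, 6.38 and 7.14). IL18 lay at 15.19, 14.36 and 15.11, and CCL20 and CXCL1, chemokines for lymphoid cells and neutrophils, differed by 0.41 and 0.39. CCL20 and CXCL1 were in culture 1 below that array's own limit. In all, 8 of 18 measured genes were above background and 4 varied, with 1 of the 8 varying between cultures 1 and 2.

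EGF receptor ligands did not share a direction, but the ligand highest in culture 3 lay near background. HBEGF, a heparin-binding ligand, lay at 9.47, 8.04 and 7.22 and EREG, epiregulin, at 8.51, 6.89 and 6.48, both highest in culture 1. EPGN, epigen, was highest in culture 3 (5.53, 6.02 and 6.94). In culture 1 EPGN lay below that array's own limit, so only a lower bound of 0.93 can be given for its difference. EGFR itself lay at 14.46, 13.79 and 13.37, TGFA was lowest in culture 3 (7.42, 7.61 and 6.56), and ERBB3 differed by 0.37. Thus 5 of 6 genes above background varied, EPGN among them on signals near background, and 2 did so without culture 3.

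Mesenchymal and matrix genes were lowest in culture 3 in 11 of 12 genes above background (42.9% of all genes), and 6 varied (12.7% of all genes). THBS1, the matricellular protein thrombospondin 1, lay at 13.30, 14.97 and 11.51, and CDH2, N-cadherin, at 9.58, 9.96 and 6.59. FN1, fibronectin, lay at 11.06, 11.39 and 8.45 and TNC, tenascin C, at 9.28, 9.17 and 6.59. TGFB2, a growth factor of wound repair, lay near background at 6.80, 6.41 and 5.23, in cultures 1 and 3 below the array's own limit. These 5 were lowest in culture 3, TGFB2 with no supported bound on its difference, whereas COL4A1 and TGFB1 differed by 0.66 and 0.70. THBS1 was the 1 gene of the 12 that varied between cultures 1 and 2.

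Markers of cells other than keratinocytes were close to background. Of 33 measured markers of fibroblasts, melanocytes, endothelium, immune and Langerhans cells, and Merkel cells, 2 had means above the limit. The other 31 had signals between 3.08 and 5.62 in all cultures, among them COL1A1, COL1A2 and PDGFRA of fibroblasts, TYR, TYRP1 and PMEL of melanocytes, PECAM1, CDH5 and VWF of endothelium, PTPRC and CD3E of leukocytes, and KRT20, ATOH1 and CHGA of Merkel cells. The 2 above it were MITF (6.82, 6.19 and 5.98), a transcription factor of melanocytes that other cells also make, and CD68 (7.38, 7.87 and 7.64), a lysosomal protein of macrophages that other cells also make. The mean signal over the 33 was 4.39, 4.34 and 4.49 in cultures 1, 2 and 3.

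Genes of the cell cycle separated culture 2 from the others. All 24 measured mitosis genes were above background and culture 2 was the highest in 23, against 35.4% of all genes. All 23 measured replication genes were above background as well, and culture 2 was the highest in 22 and culture 3 the lowest in 21 (42.9% of all genes). Of the replication genes 13 varied, and of the mitosis genes 7. The median of culture 1 minus culture 2 was -0.56 over replication genes and -0.66 over mitosis genes, and 1 and 0 genes of these lists were higher in culture 1.

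MCM10, which starts DNA unwinding, lay at 10.48, 11.63 and 9.18, and MCM6, a subunit of the helicase, at 9.90, 11.19 and 9.43. CDC6, which loads that helicase, lay at 11.85, 12.11 and 10.53. GINS1 and GINS3, subunits of the active helicase complex, differed by 0.40 and 0.52, and GINS3 was the 1 replication gene with culture 1 the highest. Among mitosis genes, CENPE, a kinetochore motor, lay at 9.02, 11.55 and 6.62 and CENPF, a large kinetochore protein, at 11.69, 12.92 and 9.26. MKI67, the Ki-67 antigen, lay at 15.26, 16.03 and 14.47 and the kinesin KIF23 at 14.33, 15.02 and 13.68. These had culture 2 the highest and culture 3 the lowest. BUB1, a checkpoint kinase, lay at 11.63, 12.52 and 11.29, while UBE2C and CDC25C, a mitotic ubiquitin enzyme and a phosphatase, differed by 0.22 and 0.27. Without CENPE and CENPF, the 22 other mitosis genes had a median of culture 3 minus the mean of the others of -0.32. That mean includes the high culture 2. Over all 24 mitosis genes the median of culture 1 minus culture 3 was 0.02. Culture 3 was the lowest in 13 of them and culture 1 in 11 (42.9% and 28.2% of all genes).

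Gene length and RNA class moved with the cultures beside these groups, and their part in the differences was not tested. Among 8490 protein-coding genes above background, culture 3 minus the mean of the others had a median of 0.04 in the eighth with the shortest gene span and of -0.12 in the eighth with the longest. The lowest median, -0.14, was that of the 7th eighth, so the medians did not fall steadily with length. KIF20B, a mitotic kinesin and one of the 15 genes with the largest distances, lay at 11.30, 13.00 and 8.61. Its span of 73.3 kb falls in the 6th eighth, where that median was -0.09. Some classes of small RNA were instead high in culture 3, but miRNA genes were not. Of 164 miRNA genes above background, 58 were highest in culture 3 and 73 lowest. Over all genes above background these shares were 34.2% and 42.9%, and 12.7% varied. Of 119 snoRNA genes above background, which guide chemical changes to ribosomal RNA, 71 varied (59.7%) and 91 were highest in culture 3, and of 14 genes annotated as snRNA, a class that here holds spliceosomal RNAs and RN7SK, 10 varied and 12 were highest in culture 3. For 121 genes and pseudogenes of 5S ribosomal RNA, which share probe signal, culture 3 was the highest in 109 and culture 1 the lowest in 101 (28.2% of all genes). Of protein-coding genes 11.4% varied and of lncRNA genes 8.50%. SNORD13, which guides acetylation of ribosomal RNA, lay at 17.86, 18.87 and 19.02.

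**Figure D4:**
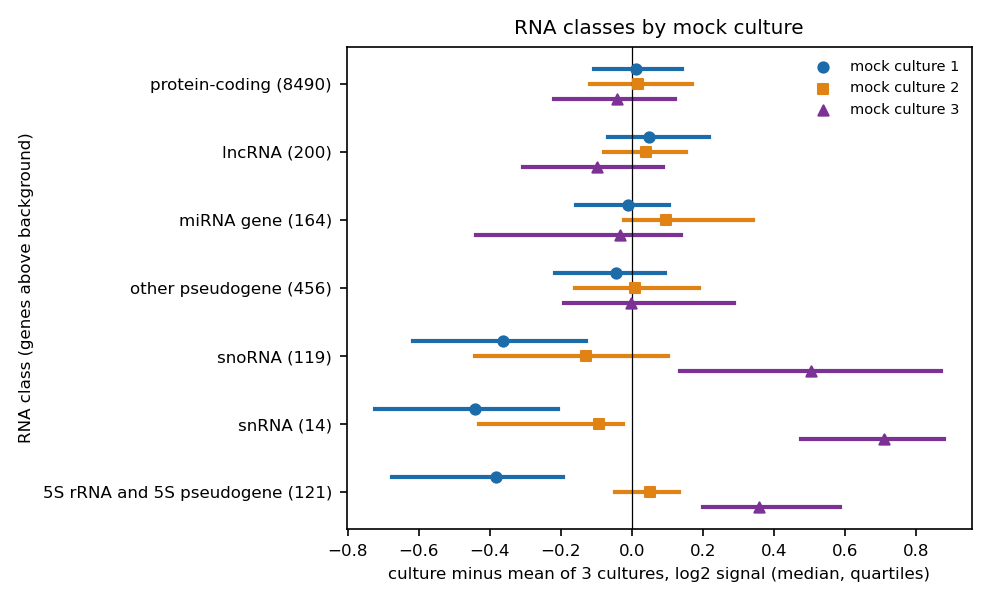
Deviation of each mock culture from the gene's mean over the 3 cultures (x axis, log2 signal) by RNA class (y axis, number of genes above background in brackets), as the median (symbol) and quartiles (line) over genes. The symbols of snoRNA, snRNA and 5S RNA genes lie to the right in culture 3, at 0.50, 0.71 and 0.36, and those of protein-coding genes lie near 0 in all cultures.

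Replication-dependent histone genes had 4 of 9 genes above background varying, led by H2AC6, which was lowest in culture 2 (11.94, 10.41 and 11.78), and the linker histone H1-1, lowest in culture 1 (6.67, 7.92 and 7.85). Histone genes have near-identical copies, so signal may be shared. Of 11 cell cycle inhibitor and p53 target genes above background 3 varied. TP53INP1, a p53-induced stress protein, lay at 8.09, 6.47 and 8.87 and CDKN2B, an inhibitor of CDK4 and CDK6, at 7.79, 6.79 and 8.13, both lowest in culture 2 (28.9% of all genes). FAS, a death receptor, was lowest in culture 3 (7.67, 7.98 and 6.91). CDKN2A and CDKN1B differed by 0.13 and 0.22. Of a list of 18 ribosomal protein genes only 7 were measured. All 7 were above background and 0 varied, with RPS27 the widest at 13.29, 13.09 and 13.99 and RPL19 the steadiest at 17.25, 17.26 and 17.36.

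Cholesterol synthesis genes had culture 3 low, and ATF4 and stress genes had culture 1 high. All 15 measured cholesterol synthesis genes were above background. Of these 4 varied (12.7% of all genes did), and culture 3 was the lowest in 13 (42.9% of all genes). HMGCS1, which makes the precursor of mevalonate, was highest in culture 2 (9.68, 11.28 and 9.46), and SQLE, the squalene epoxidase, lowest in culture 3 (11.72, 12.06 and 10.62). SC5D, a late desaturase of the pathway, was an exception, with culture 2 the lowest (10.97, 9.88 and 11.10), and MVK differed by 0.05. Of ATF4 and stress genes 10 were above background, 6 varied, and culture 1 was the highest in 8 (30.4% of all genes). PSAT1, an enzyme of serine synthesis, lay at 14.77, 13.98 and 11.24, SLC7A11, the cystine transporter, at 11.41, 11.11 and 8.69, and ASNS, the asparagine synthetase, at 8.17, 7.41 and 6.33. These 3 were lowest in culture 3, as was HSPA5, the chaperone of the endoplasmic reticulum (15.06, 15.96 and 14.15). PHGDH, which acts upstream of PSAT1, differed by 0.59.

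Hypoxia-responsive genes had 12 above background and 3 varying. VEGFA, the angiogenic growth factor, lay at 10.69, 9.09 and 8.31, NDRG1 was lowest in culture 2 (9.22, 8.05 and 9.33), and BNIP3, a mitophagy receptor, lowest in culture 3 (7.52, 6.96 and 6.37). The glycolytic genes PGK1 and ENO2 differed by 0.23 and 0.13. Of immediate early genes 4 of 12 were above background, and EGR1 (8.73, 8.91 and 7.08) and MYC (9.53, 9.28 and 8.40) varied, both lowest in culture 3, while JUNB differed by 0.39.

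**Figure D5:**
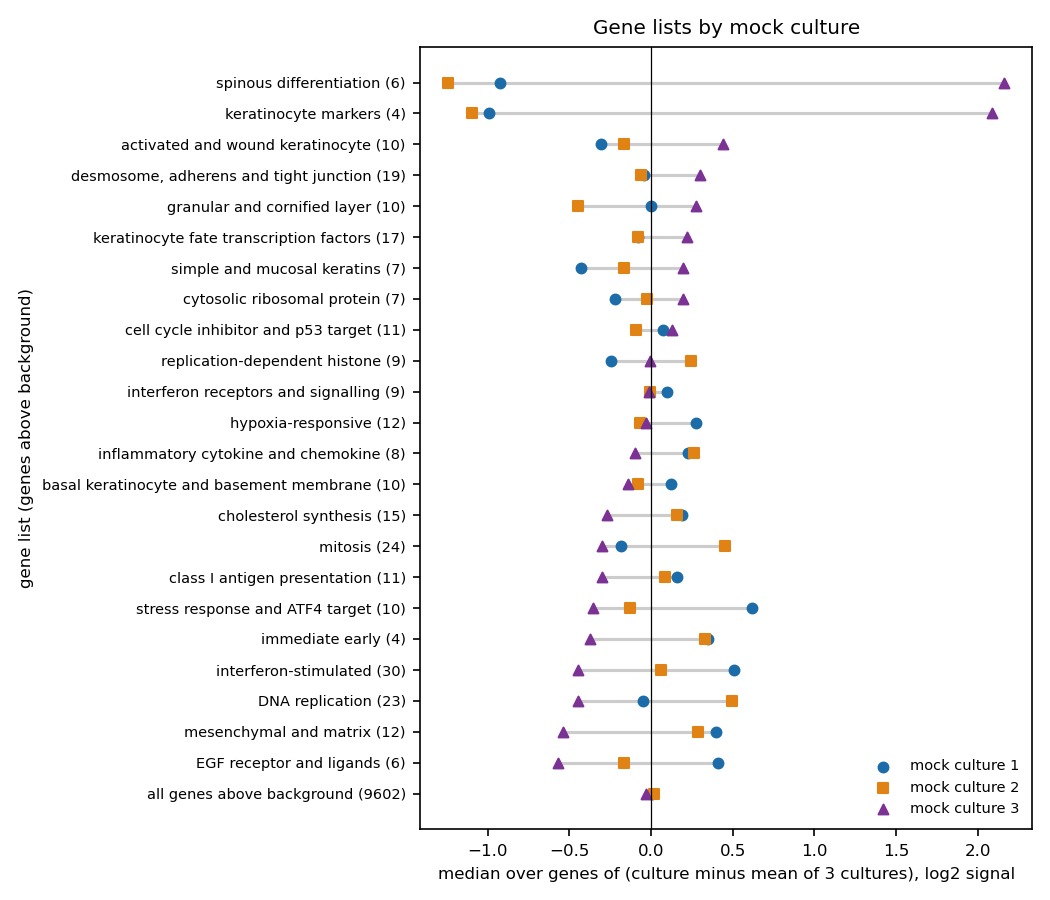
Median over the genes of a list (y axis, number above background in brackets) of each mock culture's deviation from the gene's mean over the 3 cultures (x axis, log2 signal). Culture 3 lies at 2.16 for spinous differentiation and -0.45 for interferon-stimulated genes, culture 2 at 0.45 for mitosis, and all genes above background lie near 0.

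Of the 15 genes with the largest distances, 12 had culture 3 apart, 11 of them on the high side, and 3 had culture 2 apart. After KRT1 came FABP4, a fatty acid carrier of adipocytes, at 6.08, 4.52 and 14.04, and GPR15LG, a ligand of the lymphocyte receptor GPR15, at 6.35, 6.63 and 13.68. In FABP4 cultures 1 and 2 and in GPR15LG culture 1 lay below the array's limit, so only lower bounds of 8.52 and 7.05 can be given. FABP5P7 (7.77, 8.39 and 13.09) and FABP5P1 (7.87, 8.20 and 12.52) are pseudogenes of FABP5 and may report its RNA. MMP1, the interstitial collagenase, lay at 11.54, 12.30 and 15.99 and TXNIP, an inhibitor of thioredoxin and glucose uptake, at 9.25, 8.22 and 12.60. These were high in culture 3. PNLIPRP3, a lipase-related gene (12.93, 7.63 and 11.08), and OLFM4, a secreted glycoprotein (9.01, 6.32 and 11.08), were instead marked by low signal in culture 2.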

How the data were processed

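RNA of HaCaT cultures was measured on 1 array per culture. The authors deposited log2 signals, made with RMA per the submitters' processing notes, with versions and genome build not given in the sources used here. Signals ran up to 19.92, and the variant of RMA is not given here, so differences are those of the deposited signals and need not equal ratios of RNA. The 3 mock columns of the gene-level table were used without rescaling, and 0 of its columns had no sample. The exon-level table was not used here.

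Of 67528 transcript clusters the platform annotation named 25324, 23781 with 1 symbol and 1543 with several, which stayed unnamed. RefSeq and gene name tables (GRCh38.p14) updated the symbols, 21497 through the gene number, 1974 through the symbol and 306 through a synonym, and 4 were kept. Where 528 symbols had several clusters, the one with the highest mean over the mock arrays stood for the gene. In 2372 clusters the mock signals were identical to another cluster's. The number of arrays limits the precision.

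Mean, SD, distance between highest and lowest culture and the culture that stood apart (the one farther from the middle value) were computed with Python 3.11.15, numpy 2.4.6 and pandas 2.3.3, tested on simulated data, and plotted with matplotlib 3.10.9. The 29 gene lists held 455 distinct genes, 400 of them measured. Members and lists were chosen with earlier results of these data known. Named genes were the keratinocyte markers, up to 5 members of each list above background with the largest distance and up to 2 with the smallest, the 15 genes with the largest distances, the 10 brightest and the first 3 markers of each other cell type; a few further list members are named for a departure from their list or a sequence shown. TP63 and other list genes without a cluster of a single symbol are not analysed here. Promoter sequences came from RefSeq. Alternatives covered the background limit, scaling, choice of cluster, symbols, filter, distance that counts and each replicate left out.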

Additional observations from a re-analysis of the deposited data

How the results depend on the processing

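No paired analysis was possible because only 1 group was analysed. Counts depended on the limits chosen. With the background limit at the median of the control sets, 19938 genes had a mean above it, against 9602, and 18829 were above it in every culture, against 7427. Varying genes numbered 3317 at 1.5-fold and 191 at 4-fold, against 1221, and ran from 313 without culture 3 to 834 without culture 1, with 719 without culture 2. Culture 3 stood apart in 1832 genes at 1.5-fold and 121 at 4-fold, against 734. Genes above background in every culture ran from 7428 to 9662 with 1 array left out, and genes with a mean above the limit from 8499 to 10814.

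With every culture required to be above its limit, culture 3's median deviation was -1.18 for mesenchymal and matrix genes (-0.54 otherwise), -0.62 for cytokines (-0.10) and 0.52 for simple and mucosal keratins (0.20). With 1 array left out it ran from -0.30 to -0.15 for cytokines and from -0.087 to 0.013 for interferon receptors (-0.011). These shifts reflect fewer genes or arrays by construction. In the other 225 comparisons of a list under an alternative the value moved by less than the SD over cultures, and 0 medians turned sign beyond it, although several moved by over 1.5 times. For spinous genes culture 3's median was 0.42 with no limit on signal and 1.38 with the limit at the 95th percentile of the control sets, against 2.16. With no limit on signal it was 0.09 for cornified layer genes (0.28), 0.16 for activated and wound genes (0.44), 0.13 for junction genes (0.30) and -0.32 for mesenchymal genes (-0.54). For the keratinocyte markers it was 0.73 (2.09) with every culture required above its limit. Without culture 1 it was -0.26 for interferon-stimulated genes (-0.45), and without culture 2 it was -0.22 for replication genes (-0.45) and -0.0098 for mitosis genes (-0.30). Quantile normalization of the mock arrays gave 1206 varying genes and centring gave 1204. Each culture is 1 array, so technical and biological spread cannot be told apart.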

Other observations

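Gene families chosen after their values were seen showed other patterns between the mock cultures, given here as values. Metallothioneins, which bind zinc and copper, were lowest in culture 2 in 11 of 11 genes above background (28.9% of all genes above background were lowest in that culture). MT2A lay at 16.51, 14.76 and 15.80 in cultures 1, 2 and 3, MT1X at 14.18, 12.52 and 13.87 and MT1E at 14.53, 12.97 and 14.90. These genes are near-identical and may share signal. The aldo-keto reductases AKR1C1 (10.89, 8.87 and 10.91), AKR1C2 (15.94, 13.58 and 15.86) and AKR1C3 (10.10, 8.34 and 11.02), which reduce steroids and carbonyls and are also close copies, were likewise lowest in culture 2, and AKR1B10 lay at 6.65, 6.01 and 10.12.

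All 5 measured ID genes, which encode or copy inhibitors of basic helix-loop-helix factors, were highest in culture 3 (34.2% of all genes). ID1 lay at 13.39, 13.01 and 14.84, ID3 at 7.58, 7.66 and 10.56 and ID4 at 7.91, 7.86 and 10.22. The collagenase MMP13 lay at 12.19, 13.88 and 16.09 and the stromelysin MMP10 at 5.59, 5.97 and 9.74, whereas MMP14, a membrane-bound protease, was highest in culture 1 (11.21, 10.50 and 10.18). HLA-DRA, a class II chain, was lowest in culture 3 (8.77, 9.65 and 6.34). The 7 SNORD116 copies above background were highest in culture 1 (30.4% of all genes) and lowest in culture 2 (28.9%), with SNORD116-15 at 12.30, 10.01 and 11.15. The 27 MIR548 genes above background, which derive from a repeat element, were all highest in culture 2 (35.4% of all genes).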
